A study of Mus musculus with 70 samples.

Results

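Mature myelin genes encode the proteins and lipid enzymes of the membrane that oligodendrocytes wrap around axons. The 9 genes described here (Mbp, Mag, Mog, Mobp, Cnp, Fa2h, Ugt8a, Cldn11 and Mal) were taken by symbol from a table of 24346 genes in the dorsal hippocampus of adult male mice, and all 9 were among the 12994 genes tested. They were chosen from the comparison of 0-0-2 with sedentary mice, where they had been noticed as lower, so that comparison is given as a description with no test. RNA was measured in 70 libraries, 10 in each of 7 groups, with 5 per group from each of 2 harvest cohorts, which the study describes as separate days of tissue collection. Groups are named by their days of initial wheel running, sedentary delay without the wheel, and reactivating running. The sedentary group (0-0-0) had no running, 14-0-0 had 14 days of running, and 14-7-0 and 14-14-0 had 14 days followed by a delay of 7 or 14 days. The 14-7-2 group had a further 2 days of running after its 7-day delay, and 0-0-2 had 2 days of running alone. These 6 groups had 3 min of training in the object location memory task (OLM), a protocol too short to form long-term memory in sedentary mice, and tissue was taken 1 h later. Home cage mice had neither exercise nor OLM training. The study's mice were wild type C57BL/6J, individually housed, and wheels were taken away the night before training. The labels do not say which animal each library came from, so p-values measure the spread between libraries.

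Myelin is compacted from stacked membrane sheets, and its genes are switched on together as an oligodendrocyte matures. Mbp (myelin basic protein) binds the inner membrane faces together, and Mobp encodes another small basic protein of compact myelin. Cnp is an enzyme of the cytoplasm-filled channels of the sheath, Mag a receptor at the inner wrap facing the axon, and Mog a protein of the outermost surface. Cldn11 forms the tight junctions between wraps, and Mal is a lipid raft protein of myelin membrane. Fa2h and Ugt8a are enzymes that make hydroxylated fatty acids and galactosylceramide, the characteristic lipids of the sheath. In the hippocampus, myelin is densest in the fibre tracts that border the structure, such as the alveus and fimbria, and in the neighbouring corpus callosum. Bulk tissue was measured, so fewer oligodendrocytes and less RNA per oligodendrocyte cannot be told apart.

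The values are FPKM, which divides the reads of a gene by its transcript length and by the size of the library, so that levels can be compared between genes per length. Over the 70 libraries Mbp had a median of 1590 FPKM (range 523 to 4386) and stood 7th of the 12994 tested genes by median. Cnp followed with a median of 163 FPKM, Mobp with 138, Mal with 123, Cldn11 with 96.8 and Mag with 74.5. Mog had a median of 54.0 FPKM, Ugt8a 25.6 and Fa2h 21.7. The order was firm at 4 of its 8 steps, where the gene above was higher in 70 of 70 libraries: Mbp over Cnp, Cnp over Mobp, Cldn11 over Mag, and Mog over Ugt8a. Between the other neighbours the order turned in some libraries, as Mobp was above Mal in 59, Mal above Cldn11 in 68, Mag above Mog in 63 and Ugt8a above Fa2h in 62. The narrowest of the firm steps was Cnp over Mobp, with a median ratio of 1.21 (lowest 1.01). All 9 genes were thus well above the minimum mean of 1 FPKM in every library, and none depended on the filter.

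Start-site sequences were available for 7 of the 9 genes in a RefSeq table of GRCm38.p6. They are shown because these genes move together across libraries, and the 250 bases before the start site are given for the 4 genes that carry a match to a motif of an oligodendrocyte transcription factor. MYRF, which activates myelin genes in maturing oligodendrocytes, was searched as CTGGCAC or CTGGTAC, and SOX factors, which include SOX10, as ACAAAG or ACAATG, on both strands. Capitals mark the MYRF match in Mag, Cnp and Mog and the SOX matches in Mobp.
Mag: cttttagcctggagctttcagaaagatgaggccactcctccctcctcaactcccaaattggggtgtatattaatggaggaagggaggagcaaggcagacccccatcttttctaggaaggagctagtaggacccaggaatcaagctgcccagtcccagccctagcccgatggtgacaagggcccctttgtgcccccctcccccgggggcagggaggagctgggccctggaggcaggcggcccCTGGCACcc
Cnp: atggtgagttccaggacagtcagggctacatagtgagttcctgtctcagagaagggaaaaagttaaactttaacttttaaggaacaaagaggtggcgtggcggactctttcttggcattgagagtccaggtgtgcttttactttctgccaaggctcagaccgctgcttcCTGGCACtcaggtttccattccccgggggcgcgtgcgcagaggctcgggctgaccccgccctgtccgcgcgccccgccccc
Mog: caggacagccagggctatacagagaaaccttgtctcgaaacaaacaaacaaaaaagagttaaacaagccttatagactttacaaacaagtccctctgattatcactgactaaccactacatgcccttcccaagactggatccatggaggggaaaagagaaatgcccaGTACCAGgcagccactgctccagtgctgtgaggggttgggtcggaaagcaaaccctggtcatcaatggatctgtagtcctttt
Mobp: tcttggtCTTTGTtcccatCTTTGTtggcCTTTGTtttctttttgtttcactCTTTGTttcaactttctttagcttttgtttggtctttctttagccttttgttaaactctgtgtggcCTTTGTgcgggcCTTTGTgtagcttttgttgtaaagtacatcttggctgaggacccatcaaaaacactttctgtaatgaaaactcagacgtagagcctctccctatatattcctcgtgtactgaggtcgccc
The Mag stretch is chr7:30914923-30915172 on the minus strand, and its match ends 2 bases before the start site. The Cnp stretch is chr11:100574689-100574938 on the plus strand, with its match ending 74 bases before the start. The Mog stretch is chr17:37023399-37023648 on the minus strand and holds the motif on the opposite strand, ending 76 bases before the start. The Mobp stretch is chr9:120149492-120149741 on the plus strand and holds 6 SOX matches, all on the opposite strand.

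A MYRF match was found before at least 1 start site in 3 of the 7 genes (Mag, Cnp and Mog), and in 6.79% of all 27025 genes in the table. A SOX match was found in 3 of 7 (Mag, Mobp and Cnp), against 28.2% of all genes. In Mag these counts take all of its listed start sites together. Motifs of the general start-site machinery were also searched. CCAAT (both strands) was found in 2 of 7 (Mag and Cldn11) against 37.5% of all genes, and TATAAA (gene strand) in 0 of 7 against 8.94%. Ugt8a and Mal held none of the 4 motifs. The genes themselves span chr7:30899175-30914922 (Mag), chr11:100574909-100591875 (Cnp), chr17:37010740-37023398 (Mog), chr9:120149742-120181488 (Mobp), chr3:125865272-125938682 (Ugt8a), chr3:31149920-31164326 (Cldn11), chr2:127633226-127656695 (Mal) and chr8:111345138-111393821 (Fa2h) in GENCODE. The motifs are short, were looked for after the genes were known, and a match describes letters in the window only.

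The 9 genes varied together from library to library. Over the 69 libraries other than sedentary replicate 6, whose exception is described next, the 36 pairs of members had Pearson correlations of log2(FPKM + 0.1) from 0.589 to 0.953, with a median of 0.86. With each group centred on its own mean the range was 0.546 to 0.954 and the median 0.849. All were labelled dorsal hippocampus, but marker genes of neighbouring tissue differed between them. The 8 listed choroid plexus genes held 0.00531% to 5.17% of a library's summed FPKM. The 8 listed thalamus genes summed to 24.5 to 215 FPKM. The correlations are a description. The tightest pairs were Mog with Mal (0.953), Cnp with Fa2h (0.951) and Mobp with Cnp (0.948). The loosest were Mbp with Mog (0.589), Mbp with Mal (0.607) and Mbp with Ugt8a (0.658). Among the other tested genes, those with the highest mean correlation to the 9 members over the 69 libraries were Galnt6 (0.888), Prr18 (0.885), Plekhb1 (0.882), Bcas1 (0.878), Gpr37 (0.877), Gjb1 (0.875), Carhsp1 (0.864), Tmem88b (0.861) and Litaf (0.856). Gjb1 encodes a gap junction protein of oligodendrocytes.

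One library stood farthest apart before any comparison. In sedentary replicate 6 all 9 members were at their highest of the 70 libraries. Mbp was at 4386 FPKM there, against 977 to 2514 in the other 9 sedentary libraries. Mag was at 200.8 FPKM against 43.7 to 117, and Cldn11 at 243 against 60.9 to 130. The ratio to the median of the other sedentary libraries was 1.78 to 2.52 over the 9 members, with a median of 2.34.

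The same library differed in the markers of other tissue. The 6 dentate gyrus granule cell genes were all below every other sedentary library, with Dsp at 0.143 FPKM (other median 10.3), C1ql2 at 1.08 (43.7) and Tdo2 at 0.214 (6.87). Of 6 pyramidal cell genes 4 were below, with Neurod6 at 2.45 FPKM (165), Spink8 at 1.96 (48.1) and Fibcd1 at 9.999 (38.5). Wfs1 at 54.9 FPKM (58.7) and Bok at 62.3 (62.3) lay inside the range of the other sedentary libraries. The 8 thalamus genes summed to 328 FPKM against 36.7 to 51.0, with Zic1 at 97.3 (2.28), Calb2 at 121 (6.83) and Prkcd at 90.9 (15.96). Of these 8 genes 4 were above every other sedentary library and 2 below, namely Ramp3 at 2.77 FPKM (4.51) and Lef1 at 1.22 (1.57). Of the 8 choroid plexus genes 3 were above and 1 below, and their sum of 125 FPKM lay inside the other libraries' range of 23.4 to 369. Oligodendrocyte transcription factors were higher than in every other sedentary library in 6 of 8 cases, with Nkx6-2 at 22.3 FPKM (3.65), Nkx2-2 at 4.91 (1.17) and Sox10 at 45.3 (13.2), and lower in 1, St18 at 4.61 (7.70). Of the Schwann cell markers of peripheral myelin, Pmp2 was listed at 0 in this library and at no more than 0.0782 FPKM in the other sedentary libraries, while Pmp22, which other cells of the brain also express, was above them all at 17.3 FPKM (12.9). Most of the listed markers of hippocampal neurons were therefore low in a library labelled dorsal hippocampus, and comparisons with sedentary are given with and without it. Sums of the thalamus list were also high in 14-14-0 replicate 3 (215 FPKM), 0-0-2 replicate 4 (181.6) and 14-7-2 replicate 3 (151.1). The median over all 70 libraries was 42.1 FPKM. Their dentate gyrus list sums were 60.2, 86.8 and 102.8 FPKM, against 17.3 in sedentary replicate 6. No fit over both harvest cohorts left these libraries out.

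**Figure D1:**
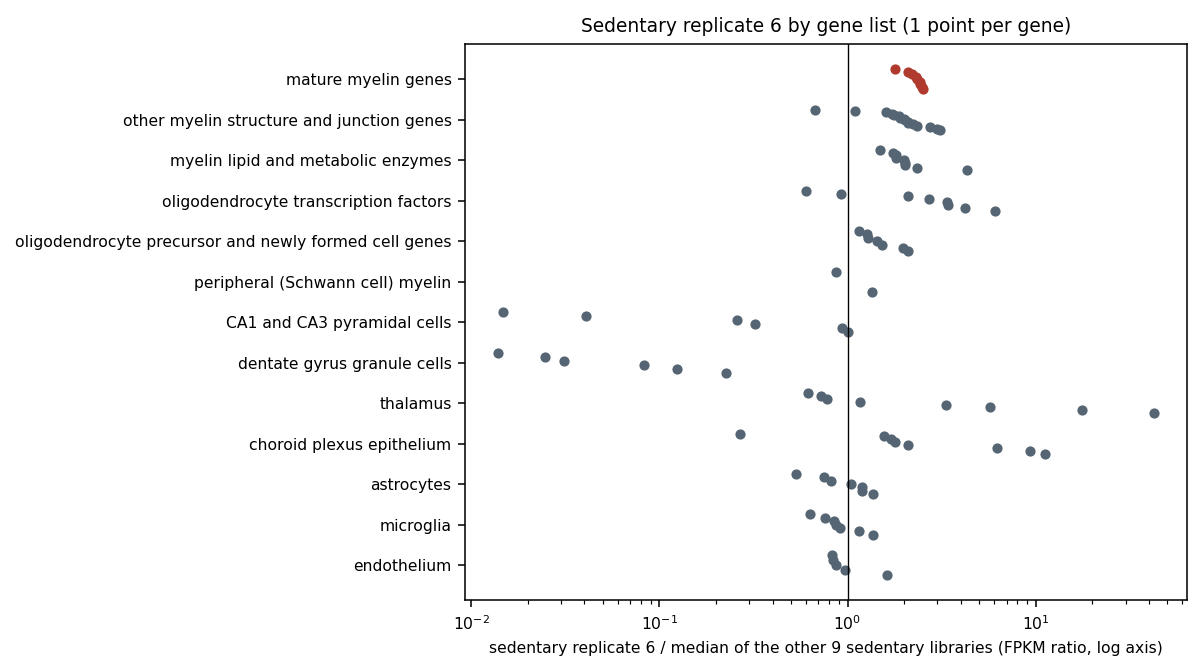
FPKM of each listed gene in sedentary replicate 6 divided by its median in the other 9 sedentary libraries (log axis, 1 point per gene, 1 row per gene list, line at equal levels). The 9 mature myelin genes lie between 1.78 and 2.52, the dentate gyrus genes lie below 1, and genes at 0 in this library have no point.

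Across the groups the members shared the lowest group but not the whole order. The median of all 9 genes was lowest in 0-0-2. The genes were chosen for being lower there than in sedentary, and they vary together, so this place is no separate result. The median was highest in 14-7-0 for 6 genes and in sedentary for 3, and without sedentary replicate 6 these counts were 7 and 2. Between the ends the order differed, as home cage was 2nd for Mog and 5th for Cldn11. Mbp had group medians from 1406 FPKM in 0-0-2 and 1440 in 14-0-0 to 1813 in sedentary and 1835 in 14-7-0, with home cage (1752), 14-7-2 (1619) and 14-14-0 (1591) between them. Cldn11 went from 75.9 FPKM in 0-0-2 and 80.4 in 14-0-0 through home cage (91.2), 14-7-2 (97.8) and 14-14-0 (98.2) to sedentary (106) and 14-7-0 (112). Mal was likewise lowest in 0-0-2, and its other medians lay close together, at 115.5 FPKM in 14-0-0, 116 in 14-7-2, 119 in home cage, 121 in 14-14-0, 127 in sedentary and 131 in 14-7-0. Between neighbouring groups in these orders the ranges overlapped in 54 of 54 cases over the 9 genes.

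**Figure D2:**
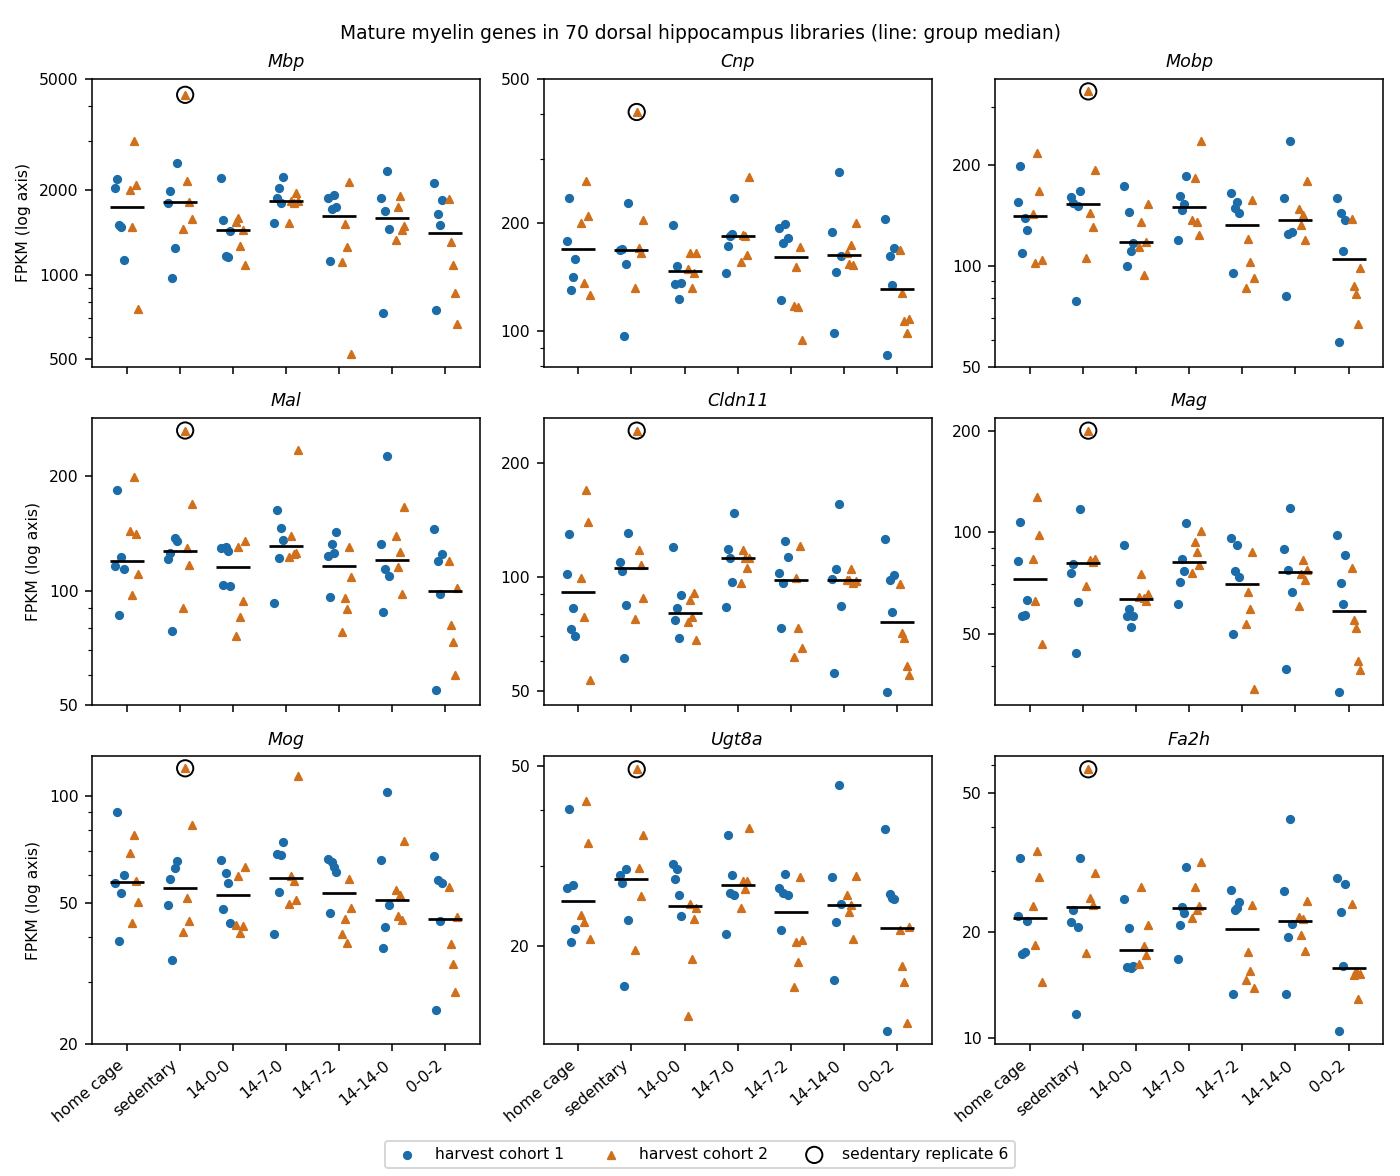
FPKM (log axis) of each mature myelin gene in the 10 libraries of each group, with circles for harvest cohort 1, triangles for harvest cohort 2, and a line at the group median. The ringed triangle is sedentary replicate 6, the highest of the 70 libraries for all 9 genes. The median is lowest in every panel in 0-0-2, the group in which the genes had been noticed as lower.

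In 0-0-2 the 9 genes lay below sedentary, the comparison from which they were chosen. Mbp ranged from 669 to 2130 FPKM in 0-0-2 (median 1406) and from 977 to 4386 in sedentary (median 1813). Mobp ranged from 59.3 to 159 FPKM in 0-0-2 (median 105) and from 78.5 to 333 in sedentary (median 153). Fa2h ranged from 10.5 to 28.7 FPKM in 0-0-2 (median 15.8) and from 11.7 to 58.4 in sedentary (median 23.6). The groups overlapped in all 9 genes, and 9 of the 10 0-0-2 libraries were below the sedentary median for Mobp, Ugt8a, Cldn11 and Mal, against 6 for Mog. The fitted log2 differences ran from -0.55 for Mobp through -0.53 for Mbp, -0.51 for Mag, -0.47 for Mal, -0.44 for Cldn11 and Fa2h, -0.42 for Cnp and -0.41 for Mog to -0.39 for Ugt8a, with a median of -0.44, and the median of all tested genes was 0.01.

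These values depended on sedentary replicate 6 and on the cohort. Without that library the range was -0.43 to -0.29 and the median -0.30. In harvest cohort 1 alone the median was -0.12 (range -0.25 to -0.03), and in cohort 2 alone, which holds replicate 6, it was -0.76 (range -0.94 to -0.67). The cohorts also differed in level within 0-0-2. There Mbp had a median of 1081 FPKM in cohort 2 against 1644 in cohort 1, and Mobp 86.9 against 138. In sedentary the medians were 1819 FPKM in cohort 2 and 1806 in cohort 1 for Mbp, and 144 and 155 for Mobp.

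Other genes of the sheath lay on the same side in this comparison. All 16 other structural and junction genes had negative log2 differences (median -0.38, and -0.29 without sedentary replicate 6), among them Hapln2 (-0.56), Gjb1 (-0.55) and Ermn (-0.48). Of 9 lipid and metabolic enzymes 8 were negative (median -0.33, and -0.24 without sedentary replicate 6), and the exception, Enpp2 (0.40 ± 0.53 SE), is also made by choroid plexus. Transcription factors had a median of -0.38 over 8 genes (-0.22 without sedentary replicate 6), with Nkx6-2 at -0.58 and Myrf at -0.53. Precursor and newly formed oligodendrocyte genes had a median of -0.23 over 7 (-0.19 without sedentary replicate 6), with Bcas1 at -0.49 and Pdgfra, the marker of precursors, at 0.08. The choroid plexus list had a median of 0.77 (0.93 without sedentary replicate 6) and the dentate list 0.34, which was -0.04 without that library. Values of single genes in this paragraph are with all libraries. The part of tissue composition in the lower levels was not tested.

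In the other groups no member was called against sedentary at an unadjusted p under 0.05 by limma over both harvest cohorts without a block. Called were 0 of 9 in 14-0-0, against 9.15% of all tested genes in either direction, 0 of 9 in 14-7-2 (4.39%), 0 of 9 in 14-14-0 (4.95%), 0 of 9 in 14-7-0 (3.26%) and 0 of 9 in home cage (2.30%). The smallest unadjusted p of the 45 values was 0.0588, for Mag in 14-0-0, where 9 of 10 libraries were below the sedentary median. All 5 comparisons use the same sedentary libraries as the 0-0-2 comparison. The median log2 difference of the members was -0.29 in 14-0-0, -0.26 in 14-7-2, -0.11 in 14-14-0, -0.09 in home cage and 0.03 in 14-7-0.

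Without sedentary replicate 6 every one of these medians moved up, to -0.16 in 14-0-0, -0.15 in 14-7-2, 0.01 in 14-14-0, 0.04 in home cage and 0.16 in 14-7-0, and the calls stayed at 0 of 9. With all libraries, other fits called members lower in 14-0-0, with 4 of 9 under a replicate block (6.57% of all genes lower), 4 of 9 by Cyber-T, the study's own test (2.17%), and 1 of 9 in cohort 2 alone (1.69%). In 14-7-2 Cyber-T called 1 of 9 (1.71%) and cohort 2 alone 3 of 9 (2.35%). For Mbp in 14-0-0 the log2 difference was -0.37 ± 0.20 SE with all libraries, an FPKM ratio of 0.773, and -0.23 ± 0.16 SE without sedentary replicate 6, a ratio of 0.851. Home cage and sedentary mice both had no running, and only the sedentary mice had OLM training. In the study that training followed days of handling and habituation, and whether home cage mice had these is not stated. Over the 9 genes the home cage difference ran from -0.15 for Cldn11 to 0.02 for Mog, with a standard error larger than the difference in 9 of 9.

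**Figure D3:**
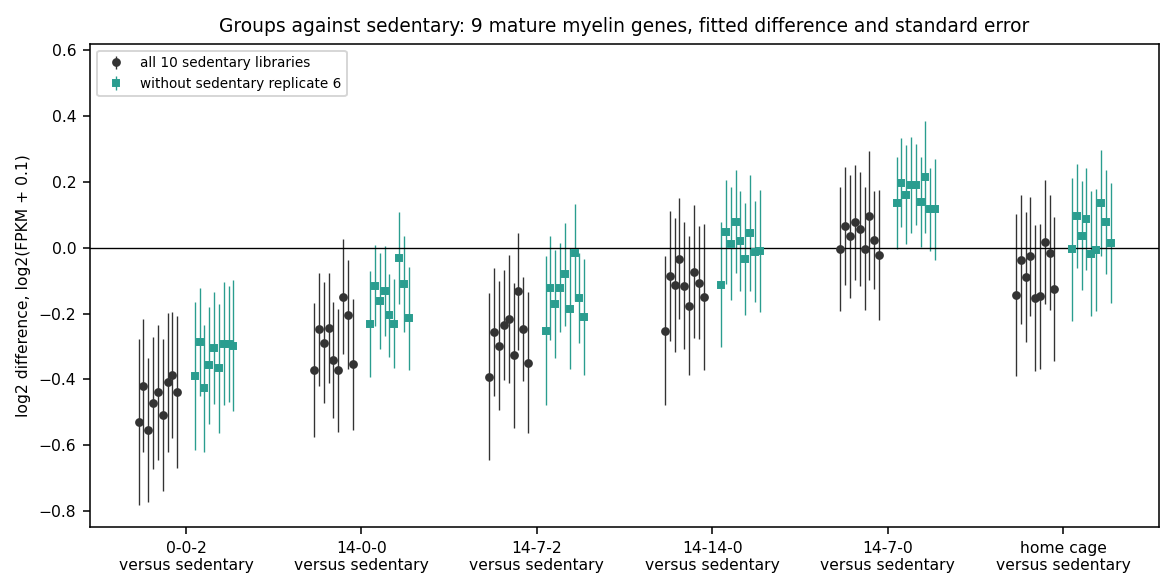
Fitted log2 difference from sedentary (points, 9 genes per cluster in the order Mbp, Cnp, Mobp, Mal, Cldn11, Mag, Mog, Ugt8a, Fa2h) and its standard error (bars), for each group, with all 10 sedentary libraries in black and without sedentary replicate 6 in green. Every green cluster sits above its black one, and in 0-0-2 the median is -0.44 with and -0.30 without that library.

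The exercise groups can be compared with each other without the sedentary or 0-0-2 libraries. The reference in most of them, 14-7-0, had the highest median of the 7 groups for 6 of the 9 genes. A gene said to have fallen was lower than in 14-7-0, and which of the groups had changed was not tested. With 14-7-0 as the reference, mice that had run for 14 days up to training (14-0-0) had lower levels of 7 of the 9 genes at an unadjusted p under 0.05, against 2.03% of all tested genes called lower. The members vary together across libraries, so in this and every other comparison their calls are not independent of each other. Cldn11, the tight junction protein, ranged from 67.9 to 120 FPKM in 14-0-0 (median 80.4) and from 83.0 to 147.5 in 14-7-0 (median 112). Of the 14-0-0 libraries 6 lay below the lowest 14-7-0 library, and 1 stood well above its group. The log2 difference was -0.40 ± 0.10 SE (n = 10 and 10), a ratio of 0.759, with an unadjusted p of 0.000621 and an adjusted p of 0.721 by limma.

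Mag ranged from 52.4 to 92.0 FPKM in 14-0-0 (median 63.2) and from 61.1 to 106 in 14-7-0 (median 81.6), a log2 difference of -0.37 ± 0.10 SE (unadjusted p = 0.00161 by limma). For both Cldn11 and Mag, 9 of 10 libraries of 14-0-0 were below the 14-7-0 median. Mbp ranged from 1081 to 2224 FPKM and from 1527 to 2226 in the same groups (medians 1440 and 1835), a log2 difference of -0.37 ± 0.11 SE (unadjusted p = 0.00353). Cnp, the channel enzyme, ranged from 123 to 197 FPKM (median 147) against 145 to 267 (median 183.5), and Mobp from 94.0 to 174 (median 118) against 119.5 to 236 (median 150.3).

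Of the members tied to membrane lipids, Fa2h and Mal passed in the same comparison and Ugt8a did not. Fa2h, the fatty acid hydroxylase, ranged from 15.8 to 27.0 FPKM in 14-0-0 (median 17.8) and from 16.8 to 31.8 in 14-7-0 (median 23.4). Mal, the raft protein, ranged from 75.97 to 135 FPKM (median 115.5) and from 92.9 to 234 (median 131), with 9 of 10 libraries of 14-0-0 below the 14-7-0 median. Cnp, Fa2h, Mobp and Mal fell by 0.31 to 0.33 on the log2 scale. Ugt8a, the galactosylceramide synthase, ranged from 13.97 to 30.3 FPKM (median 24.5) and from 21.2 to 36.4 (median 27.2). Mog, on the outer surface, ranged from 41.1 to 65.9 FPKM (median 52.5) and from 40.9 to 114 (median 58.6), and was the member with the fewest 14-0-0 libraries below the 14-7-0 median (6 of 10). Mog (-0.25 ± 0.15 SE, unadjusted p = 0.104) and Ugt8a (-0.23 ± 0.12 SE, unadjusted p = 0.0775) did not pass. The ranges of both groups overlapped for all 9 genes. After adjustment over all 12994 genes none passed, with adjusted p from 0.721 to 0.994.

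The harvest cohorts lay on the same side in 8 of 9 members. In cohort 1 the log2 differences ran from -0.36 to 0.01 (median -0.30) with 0 of 9 called (1.79% of all genes lower), and in cohort 2 from -0.51 to -0.31 (median -0.38) with 7 of 9 called (2.10%). The exception was Ugt8a, at 0.01 in cohort 1. Without replicate 9 of each group, for the reason given further on, 7 of 9 were called (2.09%), with a median of -0.29. A joint fit of all 7 groups, in which the spread of every group enters, called 1 of 9 (1.58%) at the same differences.

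Among the other lists in this comparison, 9 of 16 structural and junction genes fell (median -0.28), led by Gjc3 (-0.35, a connexin gene of oligodendrocytes), Sirt2 (-0.28, a deacetylase of myelin), Ndrg1 (-0.36) and Plekhb1 (-0.29). Of 8 oligodendrocyte transcription factors 3 fell, namely Olig2 (-0.35), Myrf (-0.37) and Sox10 (-0.31), and the median was -0.29. Of 7 precursor and newly formed cell genes 2 fell, Enpp6 (-0.40) and Bcas1 (-0.29), and the list's median was -0.10. Of 9 lipid and metabolic enzymes none fell and 1 rose, Enpp2 (1.61 ± 0.61 SE). All tested genes had a median of 0.01.

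Choroid plexus genes moved with this comparison in the other direction. All 8 were called higher in 14-0-0 (median 2.12), with Kcnj13 at 3.21, Folr1 at 2.87, Otx2 at 1.94 and Ttr at 3.14. Their summed level ranged from 34.9 to 16090 FPKM in 14-0-0 (median 2291) and from 28.1 to 2138 in 14-7-0 (median 85.5). In 14-14-0 against 14-7-0 the same 8 genes were also all called higher (median 2.07). There 0 of 9 myelin members were called, and all 9 were negative (median -0.15). The 8 listed genes held at most 5.17% of the summed FPKM of any library, and the share of choroid plexus tissue was not measured. The part of choroid plexus in the myelin difference was not tested. The thalamus list was called in 0 of 8 cases and the dentate list in 0 of 6, and 1 of 7 microglia genes fell (Csf1r by 0.16).

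After 2 days of renewed running (14-7-2), 6 of the 9 genes were lower than in 14-7-0 at an unadjusted p under 0.05, against 3.36% of all tested genes called lower. These calls, too, are not independent of each other. Ugt8a ranged from 16.2 to 28.8 FPKM in 14-7-2 (median 23.8) and from 21.2 to 36.4 in 14-7-0 (median 27.2), and 8 of 10 libraries of 14-7-2 lay below the 14-7-0 median. Its log2 difference was -0.27 ± 0.11 SE (unadjusted p = 0.0245 and adjusted p = 0.811 by limma). Cnp ranged from 94.6 to 198 FPKM in 14-7-2 (median 161) and from 145 to 267 in 14-7-0 (median 183), a log2 difference of -0.32 ± 0.14 SE. Mobp, Fa2h, Mal and Cldn11 fell by 0.27 to 0.33. Mbp had the largest difference (-0.39 ± 0.19 SE) but did not pass (unadjusted p = 0.0544), since its 14-7-2 libraries spread from 523 to 2138 FPKM. Mag (-0.32, unadjusted p = 0.0516) and Mog (-0.23, unadjusted p = 0.141) did not pass either.

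The number of calls changed with few libraries. Without 14-7-0 replicate 4, which had far fewer genes detected than any other, 2 of 9 were called (3.84%) at a median log2 difference of -0.28, and without replicate 9 of each group 0 of 9 (4.26%), with a median of -0.22. A joint fit of all 7 groups called 0 of 9 (2.84%) at the same differences as with the pair alone. In cohort 1 alone the median was -0.08 with 0 of 9 called (2.15%), and in cohort 2 alone -0.55 with 7 of 9 called (3.07%). The difference between the cohorts was itself tested in a model with a cohort term. It was negative in cohort 2 relative to cohort 1 for all 9 genes, from -0.54 for Mag to -0.29 for Cldn11. Its unadjusted p by limma ran from 0.0625 for Fa2h to 0.301 for Mbp, and its adjusted p was 0.963 or higher. The 14-7-0 libraries are shared with the preceding comparison, so the pair of results is not independent.

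**Figure D4:**
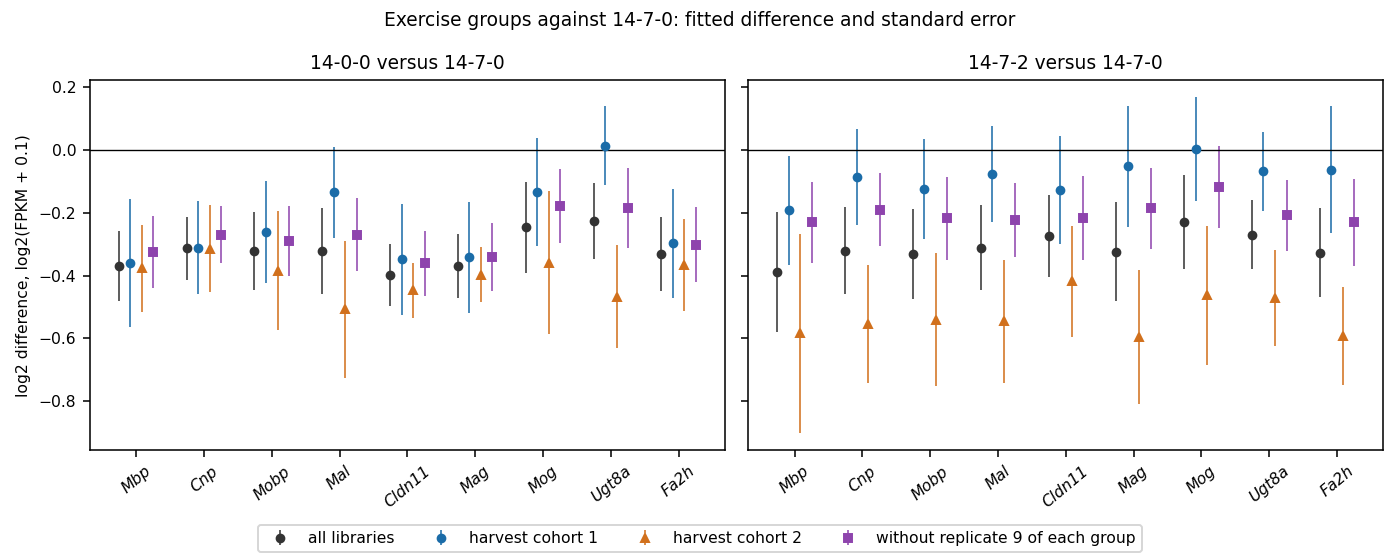
Fitted log2 difference from 14-7-0 (points) and its standard error (bars) for each mature myelin gene in 14-0-0 (left) and 14-7-2 (right), over all libraries, in each harvest cohort alone, and without replicate 9 of each group. In 14-7-2 the cohort 1 points lie near 0 (median -0.08) and the cohort 2 points lower (median -0.55), while in 14-0-0 the medians are -0.30 and -0.38.

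Other genes of the sheath were on the same side in 14-7-2. Of 16 structural and junction genes 8 fell (median -0.32), led by Ndrg1 (-0.40), Gjc3 (-0.34), Anln (-0.39) and Plekhb1 (-0.32). Of 9 lipid and metabolic enzymes 3 fell, Car2 (-0.28), Trf (-0.37, transferrin) and Apod (-0.34). Of 7 precursor and newly formed cell genes 3 fell, Bmp4 (-0.45), Gpr17 (-0.26) and Bcas1 (-0.33). The 8 transcription factors had 0 called and a median of -0.21. Of other cell types, 2 of 7 microglia genes fell (Csf1r by 0.18 and Cx3cr1 by 0.17), 1 of 7 astrocyte genes and 1 of 5 endothelium genes fell, 1 of 6 pyramidal cell genes fell (Wfs1 by 0.55) and 1 rose (Bok by 0.78), 1 of 6 dentate gyrus genes rose (Il16 by 0.34), 0 of 8 thalamus genes were called (median 0.17), and 0 of 8 choroid plexus genes were called (median 0.29).

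Between 14-7-2 and 14-0-0, which along with 0-0-2 had a wheel until the night before training, 0 of 9 members were called, against 5.95% of all tested genes in either direction, and the median log2 difference was 0.00, from -0.04 ± 0.13 SE for Ugt8a to 0.12 ± 0.13 SE for Cldn11. The cohorts lay on opposite sides of this median. In cohort 1 alone it was 0.17 with 8 of 9 positive (smallest unadjusted p 0.172 by limma). In cohort 2 alone it was -0.16 with 8 of 9 negative (smallest unadjusted p 0.140 by limma). Between 14-14-0 and 14-7-0, which differ by a second week without the wheel, 0 of 9 were called (6.44%), with a median of -0.15, from -0.25 ± 0.15 SE for Mbp to -0.11 ± 0.16 SE for Mal. In cohort 2 alone 3 of 9 were lower there (0.839% of all genes). Over the 50 libraries of the groups other than sedentary and 0-0-2, harvest cohort 2 differed from cohort 1 in 0 of 9 members (9.53% of all genes called), with log2 differences from -0.14 for Ugt8a to -0.00 for Mag.

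The balance between members differed in the libraries numbered 9. The difference between the mean log2 level of Mog and Mal and that of Mbp and Cldn11, a measure chosen after the correlations were seen, had a median of -2.38 over the 70 libraries (range -2.62 to -1.35). Replicate 9 was the highest library of its group in 7 of 7 groups, at -1.43 in home cage, -1.65 in sedentary, -1.55 in 14-0-0, -1.47 in 14-7-0, -1.35 in 14-7-2, -1.78 in 14-14-0 and -1.49 in 0-0-2. The median of the other libraries was -2.52 to -2.25 over the 7 groups. In FPKM, 14-7-2 replicate 9 had 92.3 units of Mog per 1000 of Mbp, against a median of 35.0 in the other 14-7-2 libraries, the widest gap of the 7 groups. On this measure replicate 9 was the highest in 6 of 7 groups, and in 14-14-0 it was at 49.8 against 51.1 in another library. Replicate 9 belongs to cohort 2 in every group.

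Levels in these libraries were also set against transcript GC content. For each library the log2 values, centred per gene, were correlated across 12521 genes with the GC content of the gene's longest coding transcript, and genes are not independent replicates. This r was -0.52 to -0.17 in the 7 replicate 9 libraries, below the median of the other libraries in 7 of 7 groups and the lowest of its group in 3 of 7. Other libraries were as low, such as 14-7-0 replicate 1 at -0.48 and 14-0-0 replicate 3 at -0.44. Over the 70 libraries the balance of Mog and Mal against Mbp and Cldn11 went with it at a Pearson r of -0.784, given as a description. The longest coding transcripts of the 4 genes differ little in GC content, from 48.9% for Mal to 51.0% for Mbp, while the 9 members span 38.0% (Ugt8a) to 57.6% (Mag). The mean level of the 9 members had an r of 0.159 with the GC measure. The part of base composition in the balance was not tested.

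**Figure D5:**
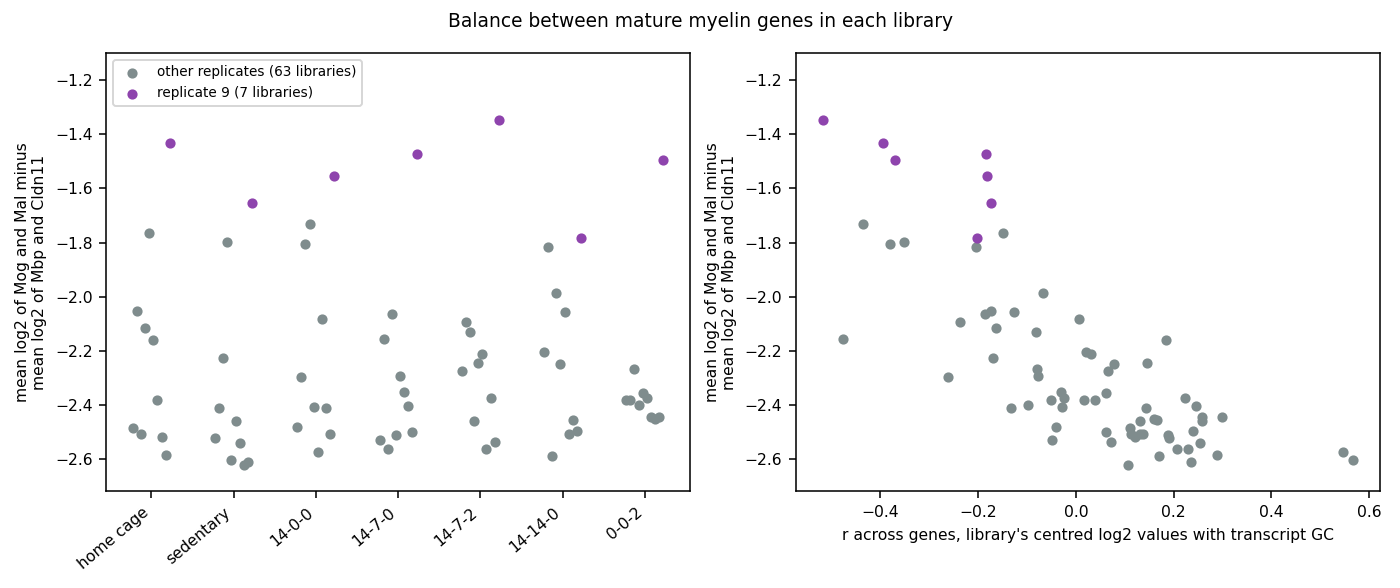
Mean log2(FPKM + 0.1) of Mog and Mal minus that of Mbp and Cldn11 in each library, by group (left) and against the library's correlation with transcript GC content across genes (right), with the 7 replicate 9 libraries in purple and the other 63 in grey. Replicate 9 is the highest point of every group, between -1.78 and -1.35, with GC correlations from -0.52 to -0.17 in the right panel.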

How the data were processed

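Total RNA of 70 dorsal hippocampus libraries was sequenced as polyadenylated RNA in single reads. The authors aligned reads with ELAND v2e and Bowtie, kept unique alignments, and deposited FPKM values per gene made by the Tuxedo protocol. The submitters' processing notes name Bowtie, Cuffnorm and the build mm10, without versions. No read counts were used, so no counting interval is given, and depth was estimated only relative to sedentary replicate 0.

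Values were transformed as log2(FPKM + 0.1), so that fold changes of low genes are understated, and tests covered the 12994 genes whose mean reached 1 FPKM across the series (11352 fell short). Groups were compared by limma 3.58.1 in R 4.3.3 (moderated test, two-sided, trend, no covariate) on the libraries of the pair. A call required an unadjusted p under 0.05, the study's criterion, and Benjamini-Hochberg adjusted p are over all tested genes. Alternatives were a pseudocount of 1, no filter, scaling by median ratios, a joint fit of 7 groups, harvest cohort as a covariate, each cohort alone, a replicate block, the study's Cyber-T test, and leaving out single libraries. The script was tested on simulated data. Transcript GC content came from GENCODE vM21 and start-site sequences from RefSeq, both of the mm10 genome (GRCm38). Figures were drawn with matplotlib 3.10.9.

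All 9 members entered every comparison. The rule was to name each, but where none was called most are given by count, median and range. From each list of related genes, up to 4 genes of smallest p are named (in 0-0-2, of largest difference), from cell type lists up to 3 genes that stood farthest from the other sedentary libraries in replicate 6, and the genes among the 10 most correlated with the members. Some items these rules select are not reported here. Exceptions, named after their values were seen, are Enpp2 and Pdgfra in 0-0-2, Csf1r, Cx3cr1, Wfs1, Bok and Il16 in 14-7-2 or 14-0-0, and Pmp2, Pmp22, St18, Ramp3, Lef1, Wfs1 and Bok in sedentary replicate 6. The members and lists were chosen with earlier results of these data known.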

Additional observations from a re-analysis of the deposited data

Results flagged for a closer look

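In each group of 10 libraries, the highest and lowest value of each member was compared with its nearest neighbour. In 14 of 63 sets of member and group 1 library lay far from the rest. A rate of about 1 set in 20, here 3.15, applies to normally distributed values. FPKM were used untransformed, each library set apart was the highest of its group, and the members vary together. The 14 are therefore not independent, and 3.15 is no firm expectation for them. Sedentary replicate 6 accounts for 7 of them, at 4386 FPKM for Mbp, 200.8 for Mag, 333 for Mobp, 405 for Cnp, 58.4 for Fa2h, 243 for Cldn11 and 263 for Mal. In 14-0-0 replicate 0, Mbp was at 2224 FPKM and Cldn11 at 120. In 14-7-0 replicate 9, Mog was at 114 FPKM and Mal at 234. In 14-14-0 replicate 3, Fa2h was at 42.2 FPKM, Ugt8a at 45.4 and Cldn11 at 155.5. That library also had a thalamus list sum of 215 FPKM, second to the 328 of sedentary replicate 6, a dentate gyrus list sum of 60.2, and a choroid plexus list sum of 11939.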

How the results depend on the processing

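Most counts of called members kept within 1.5 times their value under the alternatives tried. In 14-0-0 against sedentary, 0 of 9 became 4 with a replicate block (6.57% of all genes lower), 4 with Cyber-T on FPKM (2.17%) and 1 in cohort 2 alone (1.69%). In 14-7-2 against sedentary, 0 became 3 in cohort 2 alone (2.35%) and 1 with Cyber-T (1.71%). In 14-14-0 against 14-7-0, 0 became 3 in cohort 2 alone (0.839%). In 14-7-2 against 14-7-0, 6 became 0 in the joint fit of 7 groups, 0 in cohort 1 alone, and 0 to 2 on leaving out replicate 9 of each group or 14-7-0 replicate 4. In 14-0-0 against 14-7-0, 7 became 1 in the joint fit and 0 in cohort 1 alone, where 5 libraries a group remain. The causes were not tested. Leaving out replicate 9 was chosen after the data were seen. Same-numbered libraries were not treated as paired. In each comparison 2 to 7 of 10 pairs had a correlation over 0.1, the highest being 0.52. From 0 to 4 of 10 libraries were nearest to their own number. Structure shared by same-numbered libraries was not tested further, and the libraries numbered 9 did share the balance described above. The replicate block changed no other count of members by more than 1.5 times.

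The study lists total reads per sequencing sample, but its sample names were not matched to these libraries. Depth was therefore estimated from the FPKM. Relative to sedentary replicate 0, depth was 0.342 to 1.46 in 69 libraries and 0.0372 in 14-7-0 replicate 4, which had 10279 genes listed at 0 against 6243 to 7199 elsewhere.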

Other observations

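The 2 harvest cohorts were also compared within each contrast, by a model with a cohort term. Of 81 such tests over the 9 members and 9 comparisons, 3 had an unadjusted p under 0.05, and all were of Ugt8a, the galactosylceramide synthase. Its difference was lower in cohort 2 than in cohort 1 by limma in 14-0-0 against sedentary (-0.73 on the log2 scale, unadjusted p = 0.0275), in 14-7-2 against sedentary (-0.65, unadjusted p = 0.0408) and in 14-0-0 against 14-7-0 (-0.48, unadjusted p = 0.0388). These comparisons share libraries, and the smallest adjusted p of the 81 was 0.235, for Cnp in 14-7-2 against 14-0-0.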
